A study of Mus musculus with 5 samples.

Results

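Retained-intron transcripts are annotated transcripts that keep intron sequence which the coding transcripts of the same gene splice out. The members described here are the transcripts of that class from protein-coding genes on the autosomes with at least 1 CPM (reads scaled to a common library total) in at least 2 of the 5 libraries. Of 10807 such transcripts listed, 3786 met this level, and they belong to 2362 genes, in a table of 59869 transcripts. They were chosen by these measured CPM values, so that they are present in these libraries is no result. Each one is given as its share, in percent, of the summed CPM of all transcripts of its gene in the same library. The lowest member by this rule, of Pdcd10, reached the level of 1 CPM by a margin in the fifth digit (1.00009 CPM in its second-highest library), and the highest transcript left out, of Nup43, had 0.99943 CPM.

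The RNA came from the total epidermis of wild-type C57BL/6 male mice at postnatal day 49 whose backs had been shaved. The epidermis was separated from the skin by dissection and trypsin. It holds keratinocytes together with the other cells that live in that layer. Markers of cells from outside that layer were also present, as given below. The agents, both of which raise cAMP signalling, were put on the skin in a lotion with DMSO: 2 libraries were from skin given 10 µM forskolin, which switches on adenylyl cyclase, and 2 from skin given 1.325 mM cAMP. Each agent was applied 3 times over 5 days at 5 times its IC50. The control was 1 library labelled untreated, and the labels do not say whether it received the lotion or whether any 2 libraries came from separate animals. What the p-values of single transcripts and genes take as error is the scatter within the 2 forskolin and within the 2 cAMP libraries. It may be technical, and the 1 control adds nothing to it. The series asks how signalling through Creb bears on the activation of hair follicle stem cells.

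Most introns are removed while the RNA is still being made, in a reaction that starts with U1 snRNP on the 5′ splice site and U2 snRNP near the 3′ splice site. Transcripts that keep an intron are often held in the nucleus, or are degraded in the cytoplasm by nonsense-mediated decay when the intron brings in an early stop codon. Genes for splicing factors are well known for this: SR proteins and the CLK kinases, which phosphorylate SR proteins, carry introns whose retention limits or delays the making of their own protein.

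The splice sites below belong to introns that members of such genes hold whole, and they are shown because the values of those members follow. Each 5′ splice site is given as 3 exon bases in lower case and the first 6 intron bases in capitals. Each 3′ splice site is given as the last 20 intron bases in capitals and 3 exon bases in lower case. They were read from the GENCODE M21 transcripts (GRCm38), on the gene's own strand.
Srsf5 intron 5, 5′ splice site: cagGTTTGT
Srsf5 intron 5, 3′ splice site: CATAATTGTCTTGTGTTAAGgat
Clk1 intron 3, 5′ splice site: gggGTATGA
Clk1 intron 3, 3′ splice site: CGCCCACTTGACGTGTCCAGaag
Clk1 intron 4, 5′ splice site: gatGTATAG
Clk1 intron 4, 3′ splice site: TAATTATTCCTCTTTTTTAGatg
Clk4 intron 3, 5′ splice site: tcgGTATGA
Clk4 intron 3, 3′ splice site: CTGCCCACTTGCCGTTCCAGaag
Clk4 intron 4, 5′ splice site: gatGTATAG
Clk4 intron 4, 3′ splice site: CTTTCTCTCCCTTACTTTAGatg
Rbm5 intron 5, 5′ splice site: cagGTGAGA
Rbm5 intron 6, 5′ splice site: cagGTTGCT
The paralogous kinases Clk1 and Clk4 have the same first 6 bases at intron 3 (GTATGA) and the same 9 bases at intron 4. Over the 2238 distinct introns that members hold whole, GTATAG opened 7 (0.313%) and GTATGA 24 (1.07%). GTGAGT opened 359 (16.0%) and GTAAGT 221 (9.87%). Over the 2320 introns held by the retained-intron transcripts below the level of 1 CPM, GTATAG opened 3 (0.129%), GTATGA 26 (1.12%) and GTGAGT 323 (13.9%).

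These introns lie between coding exons. Intron 5 of Srsf5 (an SR protein) is at chr12:80947866-80949094 and is 1229 bases long. Introns 3 and 4 of Clk1, at chr1:58420212-58421082 and chr1:58419734-58420120, are 871 and 387 bases long, and those of Clk4, at chr11:51272023-51273077 and chr11:51273169-51273559, are 1055 and 391 bases long. Read in the frame of the coding transcript, intron 3 of both Clk1 and Clk4 reaches a stop codon that starts at its base 4.

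Among the members with the highest CPM, those of Eef1a1, Ncl and Rps3 hold short introns, of which 4 are printed whole, with 1 of Clk4 for comparison. Intron bases are in lower case, with the first and last 2 bases and the first in-frame stop codon in capitals.
Eef1a1 intron 4, 77 bases, chr9:78479775-78479851: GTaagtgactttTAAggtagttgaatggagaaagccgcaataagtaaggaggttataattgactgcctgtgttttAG
Eef1a1 intron 6, 85 bases, chr9:78479193-78479277: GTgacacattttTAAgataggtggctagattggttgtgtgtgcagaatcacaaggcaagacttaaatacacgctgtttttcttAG
Ncl intron 10, 190 bases, chr1:86352320-86352509: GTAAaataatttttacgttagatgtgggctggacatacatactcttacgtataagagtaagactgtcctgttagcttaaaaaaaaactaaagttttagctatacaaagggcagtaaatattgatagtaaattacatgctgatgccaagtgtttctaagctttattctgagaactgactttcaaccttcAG
Rps3 intron 2, 215 bases, chr7:99482355-99482569: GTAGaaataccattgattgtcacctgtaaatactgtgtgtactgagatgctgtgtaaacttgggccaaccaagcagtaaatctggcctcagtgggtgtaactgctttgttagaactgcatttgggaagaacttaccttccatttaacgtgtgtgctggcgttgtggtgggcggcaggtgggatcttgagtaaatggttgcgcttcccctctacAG
Clk4 intron 7, 191 bases, chr11:51275579-51275769: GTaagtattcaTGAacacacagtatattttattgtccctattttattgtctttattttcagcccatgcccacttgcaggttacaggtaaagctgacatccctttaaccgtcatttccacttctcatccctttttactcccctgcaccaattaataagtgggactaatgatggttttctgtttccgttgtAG
In each of the 5 introns the first stop codon in frame starts within the first 13 bases. In the introns of Ncl and Rps3 it overlaps the T of the 5′ splice site itself, at base 2. The GC content of the printed introns ran from 32.6% in Ncl to 47.0% in Rps3.

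The 5 libraries differed in how many reads reached protein-coding genes, and this bears on every share below. If the small offset that stands in place of 0 in the table is 0.0001 read, the libraries held 34200000 to 51700000 reads. Autosomal protein-coding genes took 7.51% of the summed CPM in the control, 29.9% and 32.7% with forskolin and 36.4% and 24.8% with cAMP. Mitochondrial genes took 69.3% of the control and 43.1% to 58.0% of the treated libraries. All 6 keratinocyte markers were at 1 CPM or more in every library. So were all 5 skeletal muscle markers, which summed to 62.9 to 152 CPM. Dermal fibroblast markers summed to 144 CPM in the control, 9.15 and 198 CPM with forskolin and 107 and 260 CPM with cAMP. The 18S ribosomal RNA gene Rn18s-rs5 stood at 55451 CPM in forskolin 2 and at 239.7 to 1645 CPM in the others. Sebocyte markers summed to 121 CPM in the control, 1026 and 1583 CPM with forskolin and 3358 and 4032 CPM with cAMP. The part of read numbers and of cell make-up in the differences below was not tested. In bulk tissue, fewer cells of a type and less RNA per cell cannot be told apart.

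As a class, retained-intron transcripts took a similar part of the coding-gene signal in each library. All 10807 listed ones together made up 6.93% of the summed CPM of autosomal protein-coding genes in the control, 7.38% and 6.66% with forskolin, and 6.13% and 6.52% with cAMP. The control lay inside the range of the treated libraries. The 3786 members alone made up 5.42% in the control, 6.63% and 5.49% with forskolin (6.06% ± 0.804, SD, n = 2), and 5.64% and 5.77% with cAMP (5.71% ± 0.0915, SD, n = 2). Forskolin and cAMP overlapped, with a 2-sided exact permutation p of 1, where 2 libraries against 2 cannot give less than 0.333. The other classes without a full coding sequence were given beside it: nonsense-mediated decay transcripts ran from 3.41% to 3.86% and processed transcripts from 4.10% to 5.13%. Protein-coding transcripts took 84.1% to 85.4%. The plot of class totals shows all 5 libraries.

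**Figure D1:**
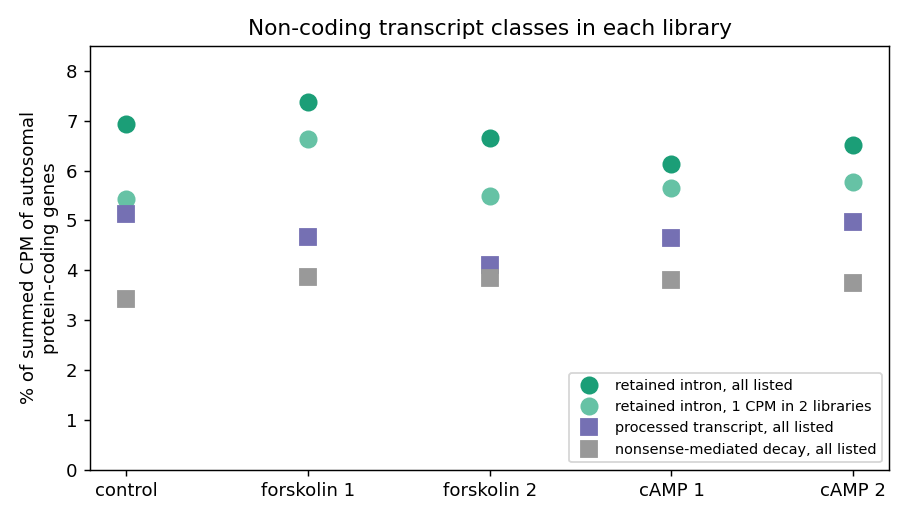
Part of the summed CPM of autosomal protein-coding genes (y axis, percent) taken by each transcript class in each library (x axis); 1 point is 1 library. All listed retained-intron transcripts (dark green) lie between 6.13% and 7.38%, with the control at 6.93%, and the members (light green) between 5.42% and 6.63%.

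The shares of single members were spread more widely in the control than in the treated libraries. Of the 3786 members, 982 reached 1 CPM in the control, so most were chosen through treated libraries where they were high, and a low median in the control follows in part from that rule. The usage analysis took the 3368 members whose gene had at least 2 listed transcripts and summed to at least 1 CPM in every library. Their mean share was 13.7% in the control, 13.7% and 11.4% with forskolin and 11.7% and 12.7% with cAMP. Their median share was 0.479% in the control, against 8.09%, 7.64%, 6.16% and 6.40% in treated skin. In the control 1778 of them were below 1% of their gene, against 159 to 858 in the treated libraries. At the other end, 298 took 50% or more of their gene in the control, against 63 to 170 in treated skin. Protein-coding transcripts of the tested genes also had their lowest median in the control, 23.0%, against 29.6% to 31.8% in treated skin. Their 90th percentile was highest in the control, at 97.5% against 87.4% to 95.03% in treated skin. For members the 90th percentile was 46.7% against 25.7% to 34.4%. At 50% or more of the gene, coding transcripts had no excess in the control, with 33.2% against 32.4% to 35.9% in treated skin. For members the part at this level was 8.85% against 1.87% to 5.05%. At 50% or more an excess was also seen for nonsense-mediated decay transcripts (20.4% against 11.6% to 18.1%) and processed transcripts (14.9% against 3.73% to 9.45%). The ranks of members by share correlated between the control and each treated library at a Spearman rho of 0.24 (lowest and highest 0.236 and 0.244, n = 3368 members), and between treated libraries at 0.402 to 0.628. Members of 1 gene share its sum, so these points are not independent.

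**Figure D2:**
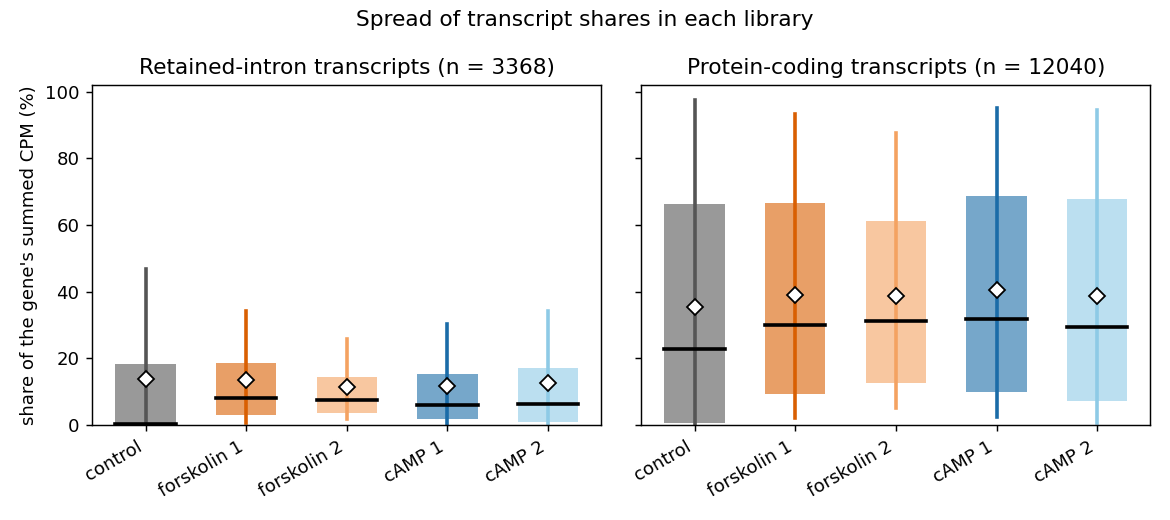
Share of the gene's summed CPM (y axis, percent) for retained-intron members (left) and protein-coding transcripts (right) in each library. Boxes run from the 25th to the 75th percentile, lines from the 10th to the 90th, black bars are medians and diamonds are means. The control has the lowest median in both panels, while the mean of its retained-intron members is 13.7%, close to that of forskolin 1 and above those of the other 3 libraries.

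Many members were listed at or near 0 in the control. Of 1697 members for which 20 or more control reads would follow from their mean share in the treated libraries, 659 (38.8%) were listed there at less than 1 read. The same count, from the mean of the other treated libraries, was 7.11% and 1.26% in the forskolin libraries, and 6.54% and 17.8% in cAMP 1 and cAMP 2. These members, too, passed mostly through treated libraries. Single members at or near 0 in the control below are to be read against these counts, and their cause was not tested.

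Of the 8 members with the highest mean CPM, several come from genes of the translation machinery. Eef1a1 (elongation factor 1A, which brings aminoacyl-tRNA to the ribosome) had 3 of them. The transcript that holds its intron 6 was at 231 CPM in the control, 550 and 484 CPM with forskolin and 793 and 535 CPM with cAMP. As a share of Eef1a1 it took 25.7% in the control, 23.7% and 23.9% with forskolin and 26.9% and 28.1% with cAMP. The control was the lowest in CPM, while as a share it lay between the forskolin and the cAMP libraries. The transcript with intron 4 took 14.2%, 14.5%, 14.998%, 8.43% and 13.5% in the same order, so cAMP 1 was the lowest. The other one (ENSMUST00000144523), which holds another whole intron, of 89 bases, took 2.75% to 9.26%.

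Ncl encodes nucleolin, a nucleolar protein of ribosome production. Its retained-intron transcript (ENSMUST00000185676, chr1:86350495-86359364, minus strand), which holds intron 10 and 1 more, took 93.2% of the gene in the control, 90.2% and 86.5% with forskolin and 84.5% and 88.5% with cAMP. Its coding transcripts took the small remainder, at 5.28 CPM in the control, against 23.2 to 24.8 CPM in treated skin. The transcript of Rps3, a protein of the small ribosomal subunit, took 52.1% in the control, 57.3% and 53.7% with forskolin, and 47.4% and 56.0% with cAMP, with the control inside the treated range.

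Krt15, a keratin of basal and hair follicle bulge keratinocytes, had a retained-intron transcript at 26.8% in the control, 24.6% and 28.3% with forskolin and 20.1% and 27.1% with cAMP. Its level was 70.2 CPM in the control, against 99.98 to 196 CPM in treated skin. Gnb2l1 (the ribosome scaffold RACK1) had one at 35.04% to 46.0%, and Pisd, a mitochondrial enzyme of phosphatidylethanolamine synthesis, one at 67.6% to 83.4%. The control lay within the treated range for all 3 genes. The Krt15 and Gnb2l1 members hold no whole intron of a coding transcript, while the Pisd member holds 2.

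A few members took nearly all of their gene. Rpl21 took 88.8% to 95.8%, Eef1g 82.9% to 98.0% and Tap2, a peptide transporter of antigen presentation, 78.5% to 100%. For Gapdh, the glycolytic enzyme, the member took 68.3% in the control, 69.6% and 86.0% with forskolin and 90.6% and 73.8% with cAMP, with coding transcripts at no more than 3.50 CPM. Over all members tested, 20 took 50% or more in all 5 libraries, and 485 did so in at least 1.

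For most of the transcripts named so far, most bases also lie in coding exons. That part was 43.4% for Rpl21, 85.1% for Gapdh, 91.9% for Eef1g, 77.8% for Ncl and 97.1% for Psmb4, a proteasome subunit. Reads from shared bases were placed by the authors' counting, so a high share does not by itself measure RNA that holds the intron. The share followed this overlap: members with under 50% of their bases in coding exons had a median share of 6.14% in forskolin 1, those with 50% to 90% had 8.40%, and those with 90% or more had 14.0%. In the other treated libraries the medians of the 3 classes were in the same order. Rpl21 and other ribosomal protein genes also have near-identical pseudogene copies, which makes their values uncertain: the 5 listed as Rpl21 pseudogenes summed to 4.75 to 46.5 CPM.

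The members of SR protein genes are described next. SR proteins bind exons and help the spliceosome to find them. Of 23 genes on this list 14 had a member, and 32 members were tested. For 17 of them all 4 treated libraries lay above the control, and for 7 all 4 lay below it. Over all 19323 transcripts tested, 42.8% had all treated libraries above the control and 25.2% had all below. For these members the shares were 53.1% and 21.9%.

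The Srsf5 member (ENSMUST00000153056, chr12:80945532-80950503, plus strand), which holds the intron 5 shown above, was at 3.89 CPM in the control, 144 and 80.2 CPM with forskolin and 81.3 and 76.0 CPM with cAMP. Its share of Srsf5 was 11.7% in the control, 55.4% and 51.2% with forskolin (53.3% ± 2.97, SD, n = 2), and 39.9% and 49.1% with cAMP (44.5% ± 6.45, SD, n = 2). All treated libraries lay well above the control, and both forskolin libraries lay above both cAMP libraries. On the log2 scale of the transcript against the rest of the gene, the difference from the control was 3.07 (SE 0.74, limma adjusted p = 0.272) with forskolin and 2.56 (SE 0.74, limma adjusted p = 0.228) with cAMP. Another Srsf5 member (ENSMUST00000151036), which holds 3 introns, took 11.3% in the control, against 0.329% to 3.03% in treated skin. The same gene thus had members on both sides of the control.

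Srsf3 also binds exons and takes part in mRNA export. Its member (ENSMUST00000150157, chr17:29040667-29042059) took 0.714% in the control, 43.0% and 32.4% with forskolin and 45.9% and 43.9% with cAMP. Srsf3 summed to 9.08 CPM in the control, where 3 reads would be 0.669% of the gene, so this member had few reads there. In Srsf6 a member with 2 whole introns was listed at less than 1 read in the control and took 9.13% and 7.90% with forskolin and 6.77% and 5.83% with cAMP.

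The kinases that phosphorylate SR proteins had 11 tested members in 5 genes. All treated libraries were above the control for 6 of them (54.5%) and below it for 2 (18.2%), where the background was 42.8% and 25.2%. The Clk4 member with 4 whole introns, among them 3, 4 and 7 (ENSMUST00000148467, chr11:51271999-51277209) was listed at less than 1 read in the control, where 3 reads would be 1.10% of the gene. It took 26.4% and 27.1% with forskolin and 13.4% and 27.1% with cAMP, so cAMP 1 was the lowest of the treated libraries. The Clk1 member with 3 whole introns, among them 3 and 4 (ENSMUST00000129577), took 5.06% in the control, 22.0% and 13.3% with forskolin and 7.75% and 15.03% with cAMP. Another Clk1 member (ENSMUST00000123580) was under 1 read in the control, where 3 reads would be 0.265%, and took 7.59% to 10.6% in the treated libraries. The remaining one (ENSMUST00000186552) took 10.9% in the control, against 17.7% to 22.6% in treated skin. In Clk1 all 3 members lay above the control in every treated library. Clk2 went the other way, at 64.3% in the control and 2.23% to 17.6% with treatment, and Srpk2 was at 14.3% and 0.989% to 2.53%.

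Among hnRNPs and related RNA-binding proteins, which often repress splicing, 34 members were tested. All treated libraries lay above the control for 15 (44.1%) and below it for 12 (35.3%), where the background was 42.8% and 25.2%. Ptbp1, a repressor of many exons, was among the latter. Its member (ENSMUST00000169580, chr10:79862017-79864432) took 55.7% in the control, 8.22% and 5.09% with forskolin and 12.9% and 13.4% with cAMP. In CPM it was at 8.05 in the control, against 5.88 to 14.9 in treated skin, while the coding Ptbp1 transcripts were at 1.08 CPM in the control, against 47.1 to 89.5 CPM in treated skin. A Hnrnpk member (ENSMUST00000176725) took 13.5% in the control and no more than 0.745% in any treated library. Another Hnrnpk member (ENSMUST00000176888) was under 1 read in the control and took 4.14% to 10.6%.

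Factors that act at the splice sites had members of both kinds. Luc7l, a U1-associated protein, had one (ENSMUST00000133032) at 1.18% in the control, 37.8% and 17.6% with forskolin and 15.4% and 30.8% with cAMP. The forskolin and cAMP libraries overlapped. Rbm5, which acts on 3′ splice site choice, had one with introns 5 and 6 (ENSMUST00000183307, chr9:107740495-107770981) at 0.559% in the control, 29.1% and 24.2% with forskolin and 11.5% and 27.7% with cAMP. Sf3b1, of U2 snRNP, had one at 9.35% in the control, against 1.04% to 2.74% in treated skin. Over the list of U1 factors, 5 of 10 tested members lay above the control in all treated libraries and 3 below it. Over the list of U2 factors these counts were 9 and 6 of 24, and over all transcripts 42.8% and 25.2% were above and below.

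In the later steps of the reaction, Bcas2, of the Prp19 complex, had a member (ENSMUST00000139489) under 1 read in the control and at 28.0%, 22.6%, 19.6% and 39.0% in the treated libraries. In the Prp19 list 5 of 11 tested members were above the control in all treated libraries and 1 below it, against 42.8% and 25.2% of all transcripts, which is the background for each list here. The tri-snRNP list had 3 above and 3 below of 9, and the exosome list, of nuclear RNA decay, 5 above and 3 below of 10. All 5 tested members of the minor spliceosome list came from Zcrb1, and 4 were above the control. Nxf1, the main mRNA export receptor, is a textbook case of a gene with a functional retained intron. Its member ENSMUST00000185056 took 67.9% in the control, against 3.83%, 6.90%, 9.54% and 6.48% in treated skin, and ENSMUST00000184387 took 1.23% in the control and 10.0%, 7.52%, 3.46% and 1.90%.

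Taken over the 11 lists of splicing, decay and export genes, 73 of 183 genes had a member, and 156 members were tested. All treated libraries were above the control for 75 (48.1%) and below it for 40 (25.6%). These shares lie near the 42.8% and 25.2% of all tested transcripts. The plot of named members shows the spread within each gene.

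**Figure D3:**
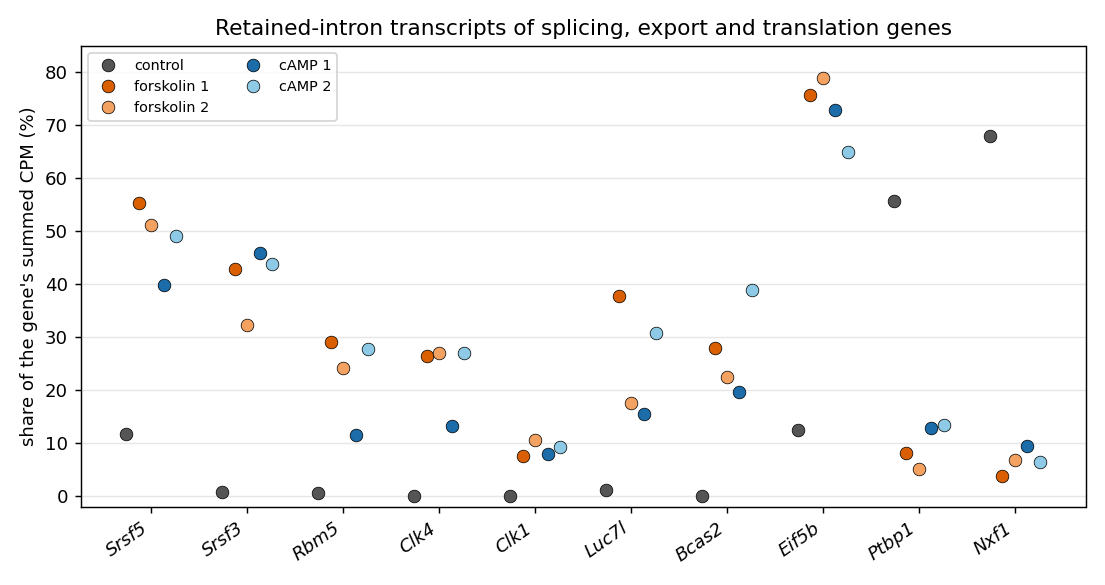
Share of the gene's summed CPM (y axis, percent) of 1 retained-intron transcript from each gene on the x axis; 1 point is 1 library. Srsf5, Srsf3, Rbm5, Clk4, Clk1, Luc7l, Bcas2 and Eif5b have the control lowest, and Ptbp1 and Nxf1 have it highest, with 55.7% and 67.9%. The genes were chosen for their values, so the plot is a description.

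Beyond splicing, the translation factor list had 30 tested members, of which 11 (36.7%) were above and 7 (23.3%) below the control in all treated libraries, against 42.8% and 25.2% of all transcripts. Eif5b, which joins the ribosomal subunits, had one (ENSMUST00000192548) at 12.5% in the control, 75.7% and 79.0% with forskolin and 72.8% and 65.1% with cAMP. It was thus the major listed form of Eif5b in all treated libraries and a minor one in the control. Of the 7 tested members in epidermal differentiation genes, 4 were above and 1 below the control (57.1% and 14.3%, against the same background). Krtdap, a secreted protein of differentiating keratinocytes, had one (ENSMUST00000190589) at 1.17% in the control, against 16.6%, 17.0%, 19.3% and 17.0% in treated skin. Krtdap summed to 313 CPM in the control, so reads for this gene were many there. A shorter Krtdap member (ENSMUST00000188036) was under 1 read in the control, where 3 reads would be 0.0194%, and took 2.50% to 4.70%.

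Sh3bgrl3, a small thioredoxin-like protein, had a member (ENSMUST00000136408) listed at less than 1 read in the control, where 3 reads would be 0.278%, and at 25.3% and 31.5% with forskolin and 25.8% and 26.8% with cAMP. The limma difference was 6.34 (SE 0.79, adjusted p = 0.272) with forskolin and 6.20 (SE 0.79, adjusted p = 0.202) with cAMP. Fxyd3, a regulator of the sodium pump, had one (ENSMUST00000169313) at 0.71% in the control, 32.8% and 25.3% with forskolin and 38.5% and 31.2% with cAMP. In the other direction, the member of Psmc4, a proteasome ATPase, took 71.6% in the control, 3.34% and 2.002% with forskolin and 0.192% and 0.113% with cAMP. Psmc4 summed to 4.47 CPM in the control. Dbp, a clock-controlled transcription factor, had a member at 42.6% in the control and 3.60% to 9.88%.

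Over all 3368 tested members, 1603 (47.6%) had all 4 treated libraries above the control and 882 (26.2%) had all below, against 42.8% and 25.2% of all tested transcripts. Where the gene summed to 20 CPM or more in every library, 136 of 307 members (44.3%) were above and 77 (25.1%) below, against 38.1% and 26.6% of 1458 transcripts. Members were above the control somewhat more often than the background, which contains them, at both levels. Over all tested genes nonsense-mediated decay transcripts had 45.0% above, processed transcripts 40.6% and protein-coding transcripts 41.6%. Whether members differ from other transcripts in this was not tested. Transcripts under 1 CPM in most libraries could enter only through libraries where they were high, which here are mostly the treated ones.

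The test of usage, limma on the log2 ratio of a transcript to the rest of its gene, called no member in any of the 3 comparisons (0% of 19323 transcripts). The smallest adjusted p of any transcript was 0.272 for forskolin against the control, 0.202 for cAMP against the control and 0.725 for forskolin against cAMP. At an unadjusted p under 0.05, 335 members were higher and 245 lower with forskolin than in the control, where the background was 10.1% and 5.91% of all transcripts. With cAMP 298 were higher and 336 lower (background 10.7% and 7.14%). These counts are 9.95%, 7.27%, 8.85% and 9.98% of the members. Where the gene summed to 20 CPM or more in every library, 64 of 307 members (20.8%) were higher and 5 (1.63%) lower with forskolin, against 13.6% and 4.39% of all transcripts at that level. With cAMP 59 (19.2%) were higher and 19 (6.19%) lower, against 12.5% and 5.9%. At that level the balance with cAMP was thus the other way round from that over all members. In simulated data with 200 of 19323 transcripts changed, the test recovered 0% of 16-fold changes in the ratio of a transcript to the rest of its gene. Data with more transcripts changed were not simulated, so the recovery in these data is not known. The 0 calls thus do not show that usage was equal.

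limma's diffSplice, which compares the change of each transcript with that of the other transcripts of its gene, made some calls. It pools the spread over the transcripts of a gene, so these act like replicates although the control is still 1 library. Its p-values thus do not measure the spread between control libraries. It called 4 members for forskolin against the control, 2 higher and 2 lower, with 0.0827% of all transcripts called. It called 54 for cAMP against the control, 10 higher and 44 lower, with 1.08% of all transcripts called. Sh3bgrl3 was called higher in both comparisons (diffSplice adjusted p = 0.0495 with forskolin and 0.0275 with cAMP). The members named next from these calls were picked after their values were seen. Members called lower with cAMP included those of Snrpb, a core protein of the snRNPs (33.4% in the control, 1.66% and 5.90% with forskolin, and under 1 read in both cAMP libraries), and Tardbp, an RNA-binding protein (12.4% in the control, 0.132% and 2.75% with forskolin, under 1 read with cAMP). Members called higher with cAMP included Cic, a transcriptional repressor, under 1 read in the control and at 66.1% and 37.5% with forskolin and 58.9% and 59.3% with cAMP. Wsb1, a subunit of a ubiquitin ligase, was under 1 read in the control and at 53.7%, 24.1%, 42.1% and 41.2% in the treated libraries.

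Between forskolin and cAMP no member was called by limma or by diffSplice, which called 0.011% of all transcripts. At an unadjusted p under 0.05 diffSplice had 172 members higher (5.12%, background 3.78%) and 82 lower (2.44%, background 3.11%). At an unadjusted p under 0.05 limma had 184 members higher with forskolin and 40 lower, where the background was 3.63% and 1.94%, and these are 5.46% and 1.19% of the members. Nonsense-mediated decay transcripts had 4.92% higher and 1.84% lower, processed transcripts 4.64% and 2.32%, and protein-coding transcripts 2.92% and 2.15%. Where the gene summed to 20 CPM or more in every library, 24 members (7.82%) were higher and 3 (0.977%) lower, against 4.6% and 1.23% of all transcripts. Both forskolin libraries lay above both cAMP libraries for 835 members (24.8%, background 17.3%) and below them for 414 (12.3%, background 16.2%). The other classes were more even here. Protein-coding transcripts had 15.4% above and 17.4% below, nonsense-mediated decay transcripts 15.8% and 16.1%, and processed transcripts 17.7% and 15.7%. Where the gene summed to 20 CPM or more in every library, 84 of 307 members (27.4%) were above and 26 (8.47%) below, against 18.6% and 13.4% of all transcripts. With any 1 of the 4 libraries left out, the higher count was above the lower one among members. Members that do not overlap with all 4 libraries cannot overlap with fewer. These counts thus contain the ones above and are no independent check of them. Without forskolin 1, 37.6% were above and 24.0% below (background 31.9% for each). Without forskolin 2, 41.8% were above and 24.4% below (background 33.7% and 30.8%). Without cAMP 1, 42.7% were above and 33.8% below (background 38.1% and 34.8%). Without cAMP 2, the treated library with the fewest reads on coding genes, these were 46.0% above and 23.8% below, against 32.7% and 33.1% of all transcripts. Whether the members differ from other transcripts in this was not tested.

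The members with the smallest p in this comparison had low shares with one agent. Plbd1, a lysosomal phospholipase-like protein, took 8.61% and 6.26% with forskolin and 0.0859% in cAMP 1, and was under 1 read in cAMP 2 (limma difference 5.07, SE 0.67, adjusted p = 0.725). Dlat, of the pyruvate dehydrogenase complex, took 6.09% and 5.40% with forskolin and was under 1 read in both cAMP libraries. In the other direction Clip1, a microtubule plus-end protein, took 4.55% and 6.28% with forskolin and 27.5% and 29.4% with cAMP, with 3.50% in the control. Its limma difference of forskolin from cAMP was -2.79 (SE 0.67, adjusted p = 0.725). For Clip1 the cAMP libraries thus stood apart and the forskolin libraries lay near the control. Of its bases 96.2% are in coding exons. Fastk and Nup214 were at no more than 0.564% with forskolin and took 4.69% to 16.6% with cAMP. Coding exons hold 91.8% of the bases of the Fastk member and 98.5% of those of the Nup214 member.

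**Figure D4:**
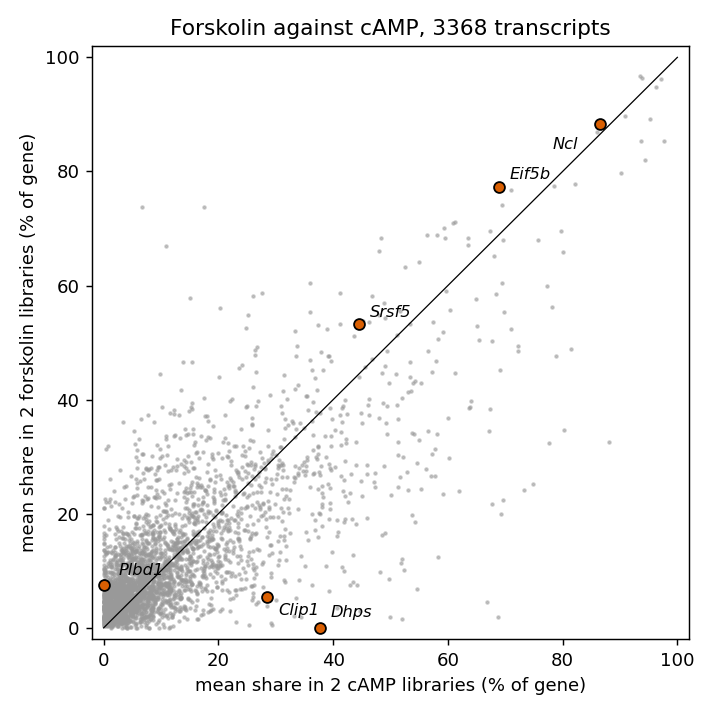
Mean share in the 2 forskolin libraries (y axis, percent) against the mean in the 2 cAMP libraries (x axis); 1 grey point is 1 of 3368 members and the line marks equal shares. Named members are marked: Ncl and Eif5b lie high on both axes, Srsf5 and Plbd1 above the line, and Clip1 and Dhps below it.

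The level of the splicing genes themselves was higher in treated skin for most of them as deposited, and for few after another scaling. Of 178 tested genes on the 11 lists, 161 were higher with forskolin than in the control and 0 lower as deposited, where 66.3% and 0.341% of all 13764 genes were higher and lower. With median-of-ratios scaling, which sets the typical gene equal across libraries, 22 were higher and 3 lower, where 14.9% and 6.79% of all genes were. For cAMP the counts were 161 higher and 0 lower as deposited (65.1% and 0.436% of all genes), and 20 higher and 2 lower with that scaling (15.4% and 7.23%). The median over all genes was 1.69 on the log2(CPM + 1) scale with forskolin as deposited and 0.21 after scaling, and over the 178 genes it was 2.33 and 0.44. No splicing gene was called between forskolin and cAMP, where limma called 0.189% of all genes in each direction as deposited, and 0.124% higher and 0.32% lower after scaling.

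By gene, Srsf5 summed to 33.1 CPM in the control, 260.0 and 157 CPM with forskolin and 204 and 155 CPM with cAMP. Its log2 difference was 2.57 with forskolin (limma adjusted p = 1.23e-04) as deposited and 0.54 (adjusted p = 0.341) after scaling. Srsf3 kept a call for cAMP after scaling, at 1.32 (limma adjusted p = 0.0470).

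The introns held by members were short. Of 3786 members 3680 (97.2%) were found in GENCODE M21, and 97.6% of these had the same start and end there. Of the 3680, 1629 (44.3%) hold at least 1 whole intron of a coding transcript. The other 2051 hold none, since they begin or end inside an intron or use other exon ends. Among these are the named members of Krt15, Rpl21, Eef1g, Psmb4, Plbd1, Dlat, Clip1, Nup214 and Sh3bgrl3. So are Fxyd3 ENSMUST00000169313, the shorter Krtdap member and the Gnb2l1 member highest in CPM. Their shares are thus not shares of RNA that keeps a whole such intron. The median length of the 2238 distinct whole introns was 244 bases (25th to 75th percentile 105 to 633), against 1023 bases (328 to 2496) for 30619 other introns of the same genes. Introns under 100 bases were 22.9% of the former and 7.36% of the latter. The retained-intron transcripts below 1 CPM held introns of a like length, at a median of 242 bases. Short introns are thus found on both sides of the level of 1 CPM.

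**Figure D5:**
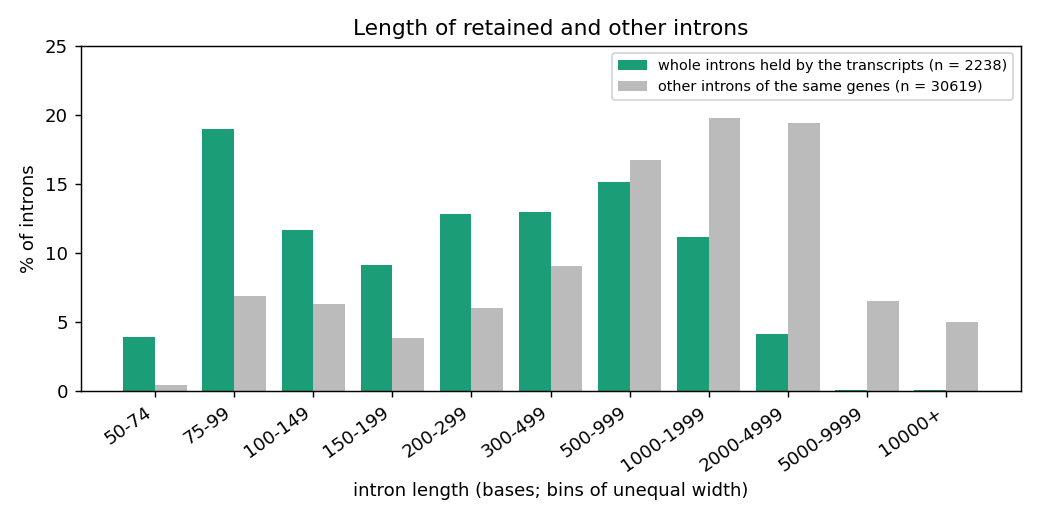
Percent of introns (y axis) in each length class in bases (x axis, classes of unequal width) for the 2238 whole introns held by members (green) and the 30619 other introns of the same genes (grey). Of the green set 22.9% are under 100 bases, against 7.36% of the grey set.

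The splice sites of these introns were ordinary. GT opened 2208 of 2238 (98.7%), GC 23, and AG closed 2228 (99.6%). Their median GC content was 52.0%, and that of the exon bases beside them was 54.0%. Of the 2238 introns, 2138 lie between coding exons, and 1898 of these (88.8%) bring in a stop codon in the frame of the coding transcript, at a median of base 34. The same share below 1 CPM was 88.1%. The last intron of the coding transcript made up 9.52% and the first 7.77%. Members with a whole intron had all treated libraries above the control in 51.2% of 1421 cases and below in 23.7%. Members without one had this in 44.7% and 28.1% of 1848, and all tested transcripts in 42.8% and 25.2%. The difference between the members with and without a whole intron was not tested.

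Introns of ribosome and translation genes often carry snoRNAs, small RNAs that guide the modification of rRNA and are released from spliced introns. Whole introns with an annotated snoRNA numbered 26 among those held by members, and small RNAs of any kind lay in 1.61% of member introns, 0.690% of those of the transcripts below 1 CPM and 0.647% of other introns. The 22 members with such an intron came from 17 genes. Their median share was 0.123% in the control, 4.83% and 5.38% with forskolin and 3.90% and 3.56% with cAMP. All treated libraries were above the control for 13 and below it for 4 of the 22, where 42.8% and 25.2% of all transcripts were. The following were picked after their values were seen. The Rpl12 member ENSMUST00000154340, whose intron holds Snora65, took 25.7% in the control, 30.3% and 45.0% with forskolin and 42.6% and 33.0% with cAMP. The Gnb2l1 member ENSMUST00000142269, with Snord95 and Snord96a, took 3.38% in the control and 2.07% to 3.17%.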

How the data were processed

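The deposited table gives each transcript in CPM, a unit read from the values because the sources used here do not name it; per the submitters' processing notes, the authors used bcl2fastq 2.17, STAR and Partek, and the build and annotation are not given in the sources used here. CPM is not per length, so a longer transcript takes a larger share of its gene, and how reads shared by transcripts were placed was set by the authors. The listed values summed to 805256 (forskolin 2) to 947144 (cAMP 1) per library, so the listed rows do not share a common total. The 3 rows with no gene identifier were left out. Shares were computed within each library. Usage was tested with limma 3.58.1 (R 4.3.3) on log2((transcript + 0.1)/(rest of gene + 0.1)), with 5 libraries and 3 groups, 2-sided, Benjamini-Hochberg adjusted over all transcripts, threshold 0.05; gene sums were tested on log2(CPM + 1). With 1 control, its spread was taken from the treated libraries. Introns of at least 50 bases came from GENCODE M21 (GRCm38). The deviations of same-numbered libraries had a correlation of 0.064 for usage. With 2 libraries per agent this cannot show whether the numbers pair them, and the main fit used no pairing. Named members were the highest in CPM or share, those with the smallest p per comparison and per list, and some splicing genes by name. Members and lists were chosen with earlier results of these data known. Some results for named genes are not reported here.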

Additional observations from a re-analysis of the deposited data

How the results depend on the processing

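limma called 0 members in every usage comparison under all planned pseudocounts, filters, scalings, the arcsine scale, transcripts summed per gene, robust fitting and leaving out each treated library; diffSplice gave 2 higher and 2 lower for forskolin against the control and 10 and 44 for cAMP against the control, and 0 members between the agents. With the replicate block, forskolin against cAMP also had 0 members called. The median log2 usage difference of members from the control turned from 0.71 to -0.89 with forskolin at a pseudocount of 1. With cAMP it turned from 0.11 to -1.08. At a pseudocount of 0.5 the medians were already -0.52 with forskolin and -0.80 with cAMP. The direction of this median is thus not settled for either agent. The splicing genes called higher went from 161 to 22 (forskolin) and 20 (cAMP) with median-of-ratios scaling, and those called lower from 0 to 3 and 2. The retained-intron part of coding genes (5.42% control, 6.06% forskolin, 5.71% cAMP) was 6.93%, 7.02% and 6.32% over all listed transcripts. Without the 10 highest members it was 4.30% in the control, 5.32% with forskolin and 4.95% with cAMP. The median share of all 3786 members was 0.409%, 8.65% and 7.03%. With 1 library left out, 37.6% to 46.0% of members lay higher and 23.8% to 33.8% lower with forskolin than cAMP, since fewer libraries have to agree; this was added after seeing the data. Of 271 alternative values for 19 named member differences, 269 kept their direction and side of the threshold, 0 reversed, and 2, both Sh3bgrl3 under diffSplice, passed it. Autosomal coding genes took 7.51% of the control's summed CPM and 24.8% to 36.4% of the others', which limits the precision of control shares.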

Other observations

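The gene Ogt, which encodes the enzyme that adds O-linked N-acetylglucosamine and is a known case of a retained intron that answers to the enzyme's activity, is on the X chromosome and so is outside the rule. Its retained-intron transcript (ENSMUST00000150161) was at 4.44 CPM in the control, 15.3 and 20.4 CPM with forskolin and 3.42 and 17.7 CPM with cAMP. As a share of Ogt it took 20.7% in the control, 10.1% and 16.0% with forskolin and 3.37% and 18.7% with cAMP, so the cAMP libraries lay on both sides of the forskolin libraries and all 4 lay below the control.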
